A study of Mus musculus with 8 samples.

Results

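Expression of 36 genes that serve folding in the endoplasmic reticulum (ER) and of the unfolded protein response was followed on 8 two-colour microarrays of mouse intestinal epithelium. The genes were the members of a set list, matched by the gene name printed for each probe or by an older alias. Hspa5, Manf and Ppp1r15a were also looked for under the names Grp78, Armet and Myd116. All 36 had a probe among 27566 named genes on the array, 17 of them more than 1, and each gene was represented by its brightest probe. Testing required a signal well above background on every array of a comparison for at least 1 of the RNAs compared. By that filter 33 members were tested in the sorted cells and 36 after deletion of Ascl2.

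The ER folds and glycosylates the proteins a cell secretes or displays on its surface. When unfolded proteins accumulate, membrane sensors respond, namely IRE1 (Ern1, and its relative Ern2 in mucosal epithelium), PERK (Eif2ak3) and ATF6. IRE1 splices the RNA of Xbp1, ATF6 is cut to release a transcription factor, and PERK phosphorylates a translation factor, which slows protein synthesis and favours translation of ATF4. XBP1 and ATF6 drive genes of chaperones, disulfide isomerases, translocation and degradation, while ATF4 drives Ddit3 (CHOP), Trib3 and genes of amino acid supply. In the intestine the pathway is known for its role in goblet and Paneth cells, which secrete mucin and antimicrobial proteins in bulk.

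The first comparison was of GFPhi with GFPlo cells. Both fractions were sorted from the intestine of Lgr5-EGFP-ires-CreERT2 mice, in which the Lgr5 promoter, active in stem cells of the crypt base, drives the fluorescent protein. Cells of 3 mice were pooled for each of 2 sorts. The second comparison set intestinal epithelial RNA of Ah-Cre/Ascl2floxed/floxed mice against that of Ah-Cre/Ascl2floxed/wt mice, 3 and 5 days after induction. These controls therefore also carried Cre, were also induced, and had 1 floxed copy of Ascl2, which encodes a transcription factor of intestinal stem cells. The sources used here do not give the number of animals behind each deletion pair or the ages of the mice. Every RNA pair, of 4 in all, was run on 2 dye-swapped arrays, which share both extracts and counted as 1 replicate. There was 1 RNA pair for each deletion day, and p-values measure the spread between pools or extracts.

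Lgr5 was higher in GFPhi cells, with log2 ratios of 1.99 and 2.21 in sort 1, then 1.74 and 1.48 in sort 2 (limma adjusted p = 0.0132). Ascl2 stood at -1.36 and -1.30 on day 3 against -1.29 and -1.34 on day 5 in deleted over control RNA (limma adjusted p = 0.965 for the mean), and the sources used here do not say whether its probe lies in the deleted part. The share of spots well above background ran from 55.0% to 66.9% per channel in the deletion and from 35.5% to 44.6% in the sorts. Background correction added an offset of 50 to each channel, which draws the ratios of dim spots towards 0. The part of this in gaps between the sorts was not tested. Precision is limited by how few arrays there are. Each RNA pair was on its own slide and scan, so slide cannot be told apart from sort or day. Array values below are log2 ratios, GFPhi over GFPlo or deleted over control, and of the 2 values of an RNA pair the first comes from the array with the GFPhi or deleted RNA in Cy3. The gap between those arrays over the members had a median of 0.23 in sort 1, 0.13 in sort 2, 0.15 on day 3 and 0.13 on day 5. It was largest for Calr in sort 2, at 0.77, and for Pdia3 in each of the other 3 pairs, at up to 0.83 on day 3.

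Some of the members share a sequence feature in their promoter windows. RefSeq windows of 250 bases before to 50 bases after the start (build GRCm38.p6) were matched for 28 of the 36 members. Both strands were searched for the ER stress response element (ERSE), written as CCAAT, then 9 bases, then CCACG, which is known to bind NF-Y with ATF6 or XBP1. They were also searched for ERSE-II, written as ATTGG, 1 base, then CCACG. Both motifs end in CCACG, and no member window held both. Only exact matches were counted, so copies that differ by a base were missed, and a window without a match may hold such a copy. ERSE was found in 8 of 28 members (28.6%), against 37 of 27025 genes (0.137%) with a window. The 8 were Hspa5, Hsp90b1, Calr, Canx, Pdia6, Dnajc3, Creld2 and Syvn1. ERSE-II was found in Herpud1 and Dnajb11, 2 of 28 (7.14%) against 0.0444% of all genes. ERSE was first described in chaperone promoters, some of them of genes on this list, so the share in the members is no independent observation.

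The 250 bases before the start of 6 members follow, with matched motif ends in capitals and each sequence on the strand of its gene. Hspa5, Hsp90b1 and Calr encode the most abundant chaperones of the ER. Creld2 and Pdia6 were the members that passed the test in the sorted cells, and Sdf2l1 is shown as a member with similar ratios and no match.
Hspa5, chr2:34771840-34772089, plus strand: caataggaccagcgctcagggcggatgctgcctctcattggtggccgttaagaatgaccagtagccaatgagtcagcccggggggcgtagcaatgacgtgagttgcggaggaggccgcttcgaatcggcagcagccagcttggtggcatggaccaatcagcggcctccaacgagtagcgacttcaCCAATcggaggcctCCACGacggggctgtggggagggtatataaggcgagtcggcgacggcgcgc
Hsp90b1, chr10:86705445-86705694, minus strand: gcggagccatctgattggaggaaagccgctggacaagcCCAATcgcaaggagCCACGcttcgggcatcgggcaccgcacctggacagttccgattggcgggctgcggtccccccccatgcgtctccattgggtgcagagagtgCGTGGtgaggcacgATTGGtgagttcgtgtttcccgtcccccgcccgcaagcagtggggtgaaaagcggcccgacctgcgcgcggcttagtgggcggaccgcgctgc
Calr, chr8:84846932-84847181, minus strand: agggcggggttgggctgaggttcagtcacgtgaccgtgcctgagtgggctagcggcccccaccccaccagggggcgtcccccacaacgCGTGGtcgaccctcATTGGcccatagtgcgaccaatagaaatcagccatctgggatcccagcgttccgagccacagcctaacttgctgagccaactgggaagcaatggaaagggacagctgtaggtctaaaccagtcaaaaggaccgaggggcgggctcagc
Creld2, chr15:88819396-88819645, plus strand: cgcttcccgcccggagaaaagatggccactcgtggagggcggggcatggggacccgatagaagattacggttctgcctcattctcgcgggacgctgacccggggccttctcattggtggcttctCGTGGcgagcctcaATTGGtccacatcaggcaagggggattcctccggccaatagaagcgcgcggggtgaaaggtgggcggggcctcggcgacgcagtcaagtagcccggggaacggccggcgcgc
Pdia6, chr12:17266339-17266588, plus strand: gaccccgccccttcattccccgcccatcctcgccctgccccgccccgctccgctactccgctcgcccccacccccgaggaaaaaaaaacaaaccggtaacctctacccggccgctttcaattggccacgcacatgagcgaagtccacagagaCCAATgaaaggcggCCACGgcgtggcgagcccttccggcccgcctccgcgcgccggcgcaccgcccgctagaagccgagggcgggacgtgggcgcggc
Sdf2l1, chr16:17132384-17132633, minus strand: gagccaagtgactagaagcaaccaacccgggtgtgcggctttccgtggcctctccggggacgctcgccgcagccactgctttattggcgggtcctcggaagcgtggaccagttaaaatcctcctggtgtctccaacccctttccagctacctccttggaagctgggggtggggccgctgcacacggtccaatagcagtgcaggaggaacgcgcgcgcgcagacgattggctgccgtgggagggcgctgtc
Hspa5 has its exact ERSE match at bases -65 to -47 from the start, and Pdia6 at -98 to -80. Hsp90b1 has a pair of matches, at -212 to -194 and, on the opposite strand, at -107 to -89. In Calr (-162 to -144) and Creld2 (-126 to -108) the element is on the opposite strand. A further element, TGACGTGG, known as the unfolded protein response element, was in no member window, against 0.714% of all genes. The element TGATGNAA, to which ATF4 with a C/EBP partner is known to bind, was found in Trib3 at bases 15 to 22 after the start and in Herpud1 at -112 to -105. That is 7.14% of member windows against 4.51% of all genes, and 9 of the 20 genes with a window in a list of known ATF4 targets held it. A match is a description of letters, and binding was not measured.

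In the sorted cells most ER genes had their lower level in the fraction with high Lgr5. The mean log2 ratio of GFPhi over GFPlo was below 0 for 32 of 33 tested members, against 5211 of all 10433 genes tested. The median over members was -0.31, while that over all genes tested was 0.00011. The medians of the sorts taken singly were -0.34 and -0.33. Of the 33, 23 were lower on all 4 arrays, against 17.2% of all genes tested, and 0 were higher on all 4, against 16.5%. Only Creld2 and Pdia6 fell past the test (limma, Benjamini-Hochberg adjusted p under 0.05 over all genes tested), 2 of 33 where 0.412% of all genes were called lower. A further 8 members had an adjusted p between 0.05 and 0.1. The 3 members not tested, Dnajb9, Sel1l and Trib3, gave array values from -0.12 to 0.21.

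**Figure D1:**
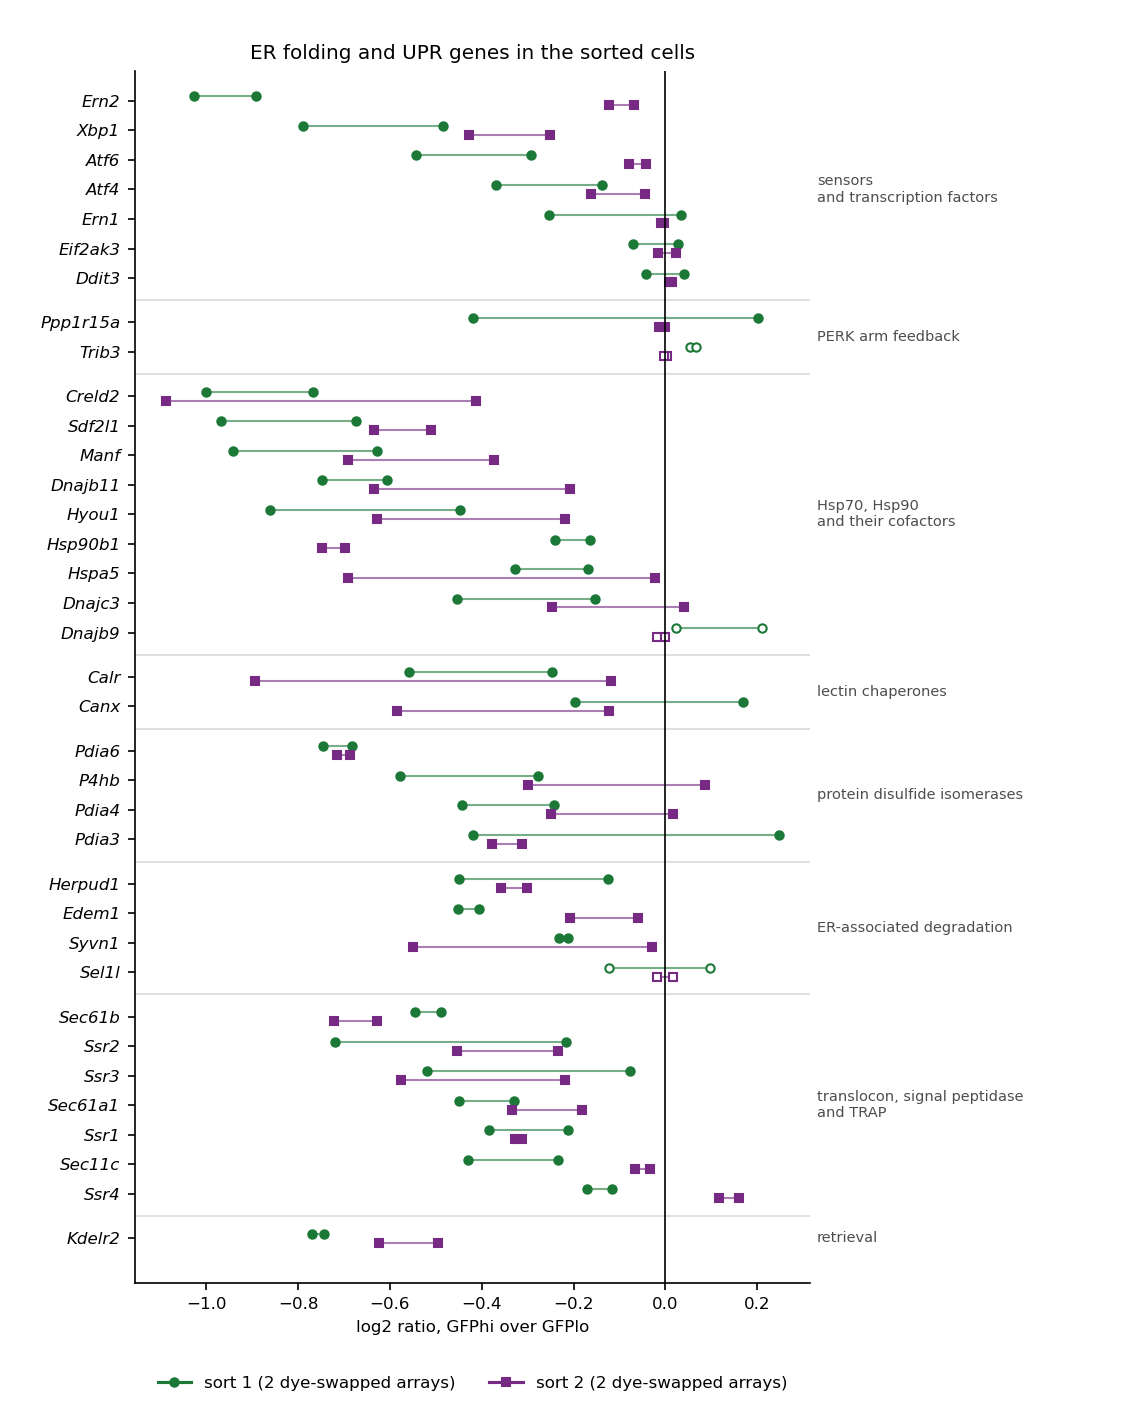
Log2 ratio of GFPhi over GFPlo (horizontal) for each of the 36 members, grouped by role. Each symbol is 1 array and each line joins the dye-swapped arrays of a sort, with open symbols for the 3 members not tested. Most symbols lie left of 0, and Creld2 and Pdia6 have the lowest means, at -0.82 and -0.71.

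Creld2, a secreted ER stress protein that acts in disulfide exchange, had log2 ratios of -1.001 and -0.77 in sort 1, then -0.41 and -1.09 in sort 2. It was low in GFPhi cells on every array, with a mean of -0.82 ± 0.09 (SD, n = 2 sorts), which is 1.76-fold lower (SE 0.08, limma adjusted p = 0.0261). Pdia6, a protein disulfide isomerase that also restrains the sensors, had -0.75 and -0.68 in sort 1, then -0.72 and -0.69 in sort 2. Its 4 arrays lay close together, with a mean of -0.71 ± 0.0092 (SD, n = 2 sorts) or 1.63-fold lower (SE 0.07, limma adjusted p = 0.0309). Its 3 dimmer probes averaged -0.45, -0.24 and -0.20 in sort 1 and -0.08, -0.04 and 0.01 in sort 2, so the size of the Pdia6 value depends on the probe, and with all probes averaged Pdia6 was at -0.30 and did not pass (limma adjusted p = 0.219). The probes lie on chromosome 15 at 88654333 to 88654392 for Creld2 and chromosome 12 at 17309637 to 17309696 for Pdia6, both on the plus strand of mouse build mm8. With all 4 RNA pairs fitted together, where the difference between deletion days enters the shared spread, neither passed and no gene on the array did (lowest adjusted p of a member 0.814). Without sort 1 Creld2 stood at -0.75 and Pdia6 at -0.70, and without sort 2 they stood at -0.88 and -0.71. With 1 sort left the spread comes from the deletion pairs alone, so such a fit cannot test whether a call depends on 1 sort.

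Of the sensors and transcription factors, 6 of 7 had a mean below 0 and 4 were lower on all 4 arrays, with a median of -0.18. Xbp1 stood at -0.48 and -0.79 in sort 1, then -0.43 and -0.25 in sort 2. It was low on every array, with a mean of -0.49 ± 0.21 (SD, n = 2 sorts), and did not pass the test (limma adjusted p = 0.103). Spliced and unspliced Xbp1 RNA were not measured separately. Ern2, the IRE1 relative known from goblet cells, stood at -0.89 and -1.03 in sort 1, then -0.12 and -0.07 in sort 2. It was low in both sorts and far lower in sort 1, with a mean of -0.53 ± 0.61 (SD, n = 2 sorts, limma adjusted p = 0.330).

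Ern1, the ubiquitous IRE1, gave -0.25 and 0.03 in sort 1, then -0.01 and -0.0028 in sort 2, close to 0 on 3 arrays. Atf6 gave -0.29 and -0.54 in sort 1, then -0.08 and -0.04 in sort 2, low on every array and lower in sort 1. Eif2ak3, which encodes PERK, gave 0.03 and -0.07 in sort 1, then 0.02 and -0.02 in sort 2, on both sides of 0. Its downstream factor Atf4, which is regulated mainly through translation, was low on every array by a small amount, at -0.14 and -0.37 in sort 1, then -0.04 and -0.16 in sort 2. Ddit3, which encodes the transcription factor CHOP, gave -0.04 and 0.04 in sort 1, then 0.01 and 0.0075 in sort 2. Ppp1r15a, the phosphatase subunit that reverses the PERK signal, gave 0.20 and -0.42 in sort 1, then -0.0013 and -0.01 in sort 2. These 2 genes lay on both sides of 0 within sort 1. The pseudokinase gene Trib3, an ATF4 and CHOP target, was not tested here, since its probe was above background on all 4 arrays in neither fraction. None of the tested genes in these 2 groups passed the test, and their limma adjusted p ranged from 0.103 for Xbp1 to 0.982 for Ddit3.

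The group of Hsp70 and Hsp90 chaperones and their cofactors, in which Creld2 and Manf were also placed, had the lowest median of the groups with more than 1 gene. Of its tested means 8 of 8 were below 0, with 7 lower on all 4 arrays and a median of -0.54. Hspa5, the ER Hsp70 known as BiP, stood at -0.17 and -0.33 in sort 1, then -0.69 and -0.02 in sort 2. It was low on every array, though by little on 1 array of sort 2, with a mean of -0.30 ± 0.08 (SD, n = 2 sorts, limma adjusted p = 0.158). Hsp90b1, the ER Hsp90 known as GRP94, stood at -0.24 and -0.16 in sort 1, then -0.75 and -0.70 in sort 2 (limma adjusted p = 0.216). This probe was lower in sort 2, while a dimmer Hsp90b1 probe averaged -0.19 in sort 1 and -0.09 in sort 2.

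Sdf2l1, a cofactor that keeps BiP cycles going, stood at -0.97 and -0.67 in sort 1, then -0.63 and -0.51 in sort 2, low on every array (mean -0.70, limma adjusted p = 0.0558). Manf, a secreted ER stress protein that binds BiP, stood at -0.94 and -0.63 in sort 1, then -0.69 and -0.37 in sort 2, also low on every array (mean -0.66, limma adjusted p = 0.0571). Both missed the threshold by little. Dnajb9 was not tested, for the same reason as Trib3. The means of the remaining members of the group, Dnajb11, Hyou1 and Dnajc3, lay between -0.55 and -0.20.

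Among the lectin chaperones, which hold glycoproteins in the folding cycle, Calr stood at -0.25 and -0.56 in sort 1, then -0.12 and -0.89 in sort 2. It was low on every array, but in each sort the array with GFPhi in Cy5 was the lower one, and the mean of -0.45 ± 0.07 (SD, n = 2 sorts) had a limma adjusted p of 0.0765. A dimmer Calr probe averaged -0.22 in sort 1 and -0.02 in sort 2, with arrays on both sides of 0, so the Calr value depends on the probe. Canx, its membrane-bound relative, had a mean of -0.18 with arrays on both sides of 0. The other disulfide isomerases, Pdia4, Pdia3 and P4hb, had means from -0.27 to -0.22 and none had 1 sign on all 4 arrays.

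The ER retrieval receptor Kdelr2, which returns chaperones that escape to the Golgi, stood at -0.74 and -0.77 in sort 1, then -0.50 and -0.62 in sort 2 (mean -0.66, limma adjusted p = 0.0547). Sec61b, a subunit of the translocon through which new proteins enter the ER, stood at -0.55 and -0.49 in sort 1, then -0.72 and -0.63 in sort 2 (mean -0.60, limma adjusted p = 0.0571). Both were low on every array and just missed the threshold. A dimmer Kdelr2 probe averaged -0.49 in sort 1 and -0.22 in sort 2. Of the 7 genes of the translocon, signal peptidase and the translocon-associated TRAP complex, 7 had means below 0 and 6 were lower on all 4 arrays (median -0.32). Ssr4, a TRAP subunit, was the exception, below 0 in sort 1 and above it in sort 2, and its probes differed in the sign of the mean. The 3 tested genes of ER-associated degradation, Herpud1, Edem1 and Syvn1, had means between -0.31 and -0.26 and were lower on all 4 arrays. Sel1l was not tested.

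**Figure D2:**
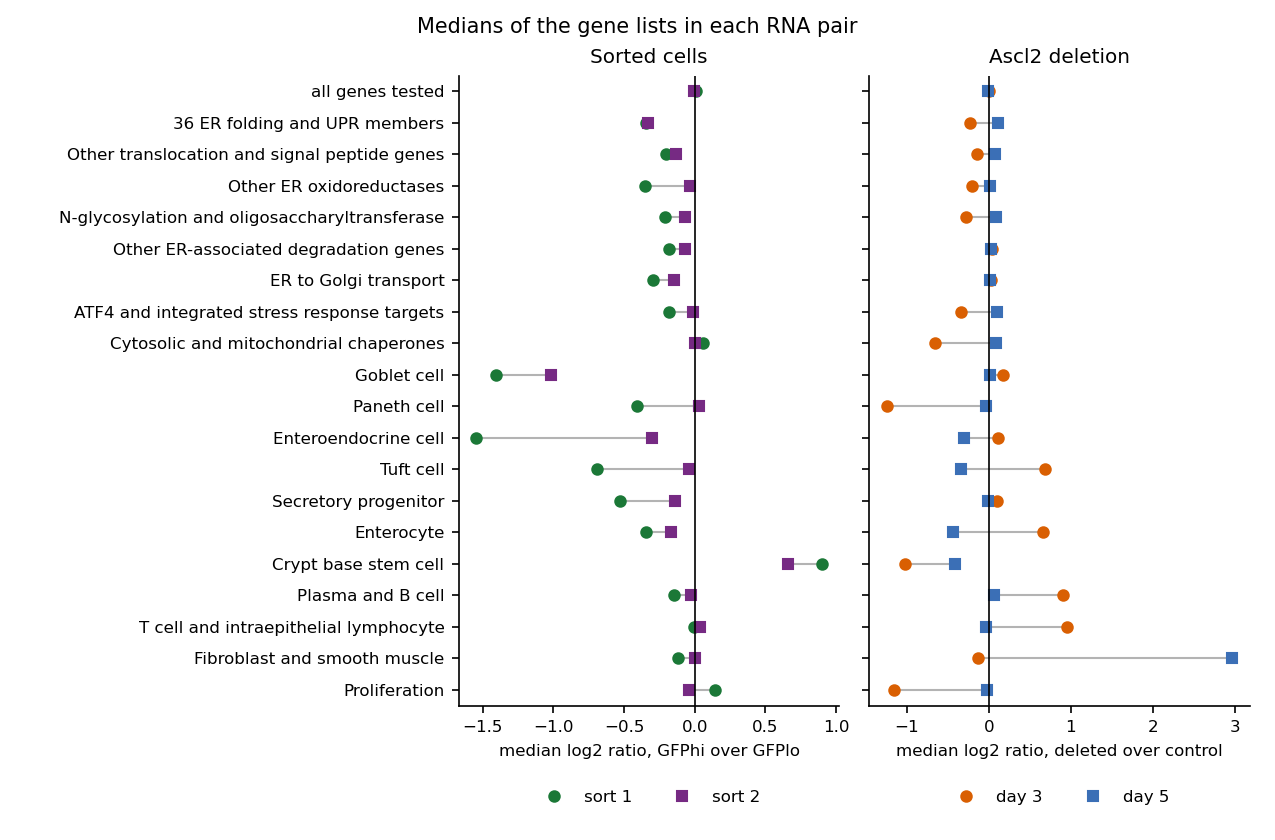
Median log2 ratio of the tested genes of each list in each RNA pair, GFPhi over GFPlo on the left and deleted over control on the right, with no error shown. The 36 members have medians of -0.34 and -0.33 in the sorts, -0.23 on day 3 and 0.11 on day 5, while goblet cell markers reach -1.41 in sort 1 and cytosolic chaperones -0.66 on day 3.

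Genes of the neighbouring steps were lower in GFPhi cells as well, by smaller medians. Counts in this and the next paragraph stand against 5211 of all 10433 genes tested below 0 and 0.412% called lower. Of the other translocation genes 14 of 15 tested had means below 0 (median -0.18) and 0 passed the test. The smallest p-values belonged to Spcs2 at -0.52, Tram1 at -0.40 and Srp9 at -0.30. Of the genes of N-glycosylation 23 of 23 lay below 0 (median -0.13) and 0 passed, led by Gfpt1 at -0.54, Ostc at -0.58 and Rpn1 at -0.49. Of the genes of ER-to-Golgi transport 27 of 31 lay below 0 (median -0.24), 19 on all 4 arrays, and 0 passed, led by Surf4 at -0.52, Tmed2 at -0.45 and Mcfd2 at -0.40. Of the other degradation genes 13 of 18 lay below 0 (median -0.15) and 0 passed, led by Derl2 at -0.45, Selenos at -0.48 and Derl1 at -0.36.

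Of the other ER oxidoreductases 12 of 15 lay below 0 (median -0.18), and 2 passed the test. These were Agr2, the isomerase of mucin folding in goblet cells, at -2.05 (limma adjusted p = 0.00433), and Txndc5 at -0.83 (limma adjusted p = 0.0481), followed by Txndc11 at -0.48. Agr2 also stands in the goblet cell list. Chaperones of the cytosol and mitochondria did not share the direction, with 9 of 21 below 0, a median of 0.01 and 0 past the test. Hspa8, the constitutive cytosolic Hsp70, was at 0.47, Hsp90ab1 at 0.24 and Tcp1 at 0.18. In the ATF4 target list 16 of 22 lay below 0 (median -0.07) and 0 passed, led by Cebpb at -0.43, Wars at -0.37 and Aars at -0.34.

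Markers of secretory cells and of other differentiated cells mostly lay below 0 beside the ER genes. Over all 10433 genes tested, 5211 lay below 0 and 5222 above, and 0.412% were called lower. Of 15 tested goblet cell markers 15 were below 0 and 8 passed the test, with means from -2.05 to -0.25 and medians of -1.41 in sort 1 and -1.02 in sort 2. Muc2 was at -1.47, Tff3 at -1.93 and Clca1 at -1.88. Of 15 enteroendocrine markers 15 were below 0 and 4 passed, with medians of -1.55 in sort 1 and -0.30 in sort 2, and Chga was at -1.89, Chgb at -2.06 and Cck at -2.14. Paneth cell markers had a median of -0.41 in sort 1 and 0.03 in sort 2, and 16 of 16 tested crypt base stem cell markers lay above 0. Of 14 tested enterocyte markers 12 were below 0 and 1 passed as lower, with medians of -0.35 in sort 1 and -0.17 in sort 2. Of 5 tested tuft cell markers 5 had means below 0, with medians of -0.69 in sort 1 and -0.04 in sort 2. Only 2 of 17 plasma and B cell markers passed the filter, at -0.14 and -0.03. The part of these cells in the lower ER gene ratios was not tested. In bulk RNA fewer cells of a type and less RNA per cell cannot be told apart.

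After deletion of Ascl2, 25 of 36 members lay below control on day 3, against 7877 of all 15887 genes tested. On day 5, 23 of 36 members lay above control, against 7643 of all genes tested. Of the members 18 did both, and how many of all genes did so was not counted. Averaged over the days, 0 of 36 members and 0% of the 15887 genes tested passed the limma test, whose spread includes the difference between days. At an unadjusted p under 0.05 there were 453 genes in all and 0 members. The median over members was -0.09, with 24 of 36 below 0. It was -0.23 on day 3, where 22 members were lower on both arrays against 39.5% of all genes tested and 8 higher on both against 38.9%. It was 0.11 on day 5, where 6 were lower on both arrays against 34.9% of genes and 19 higher on both against 31.6%.

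**Figure D3:**
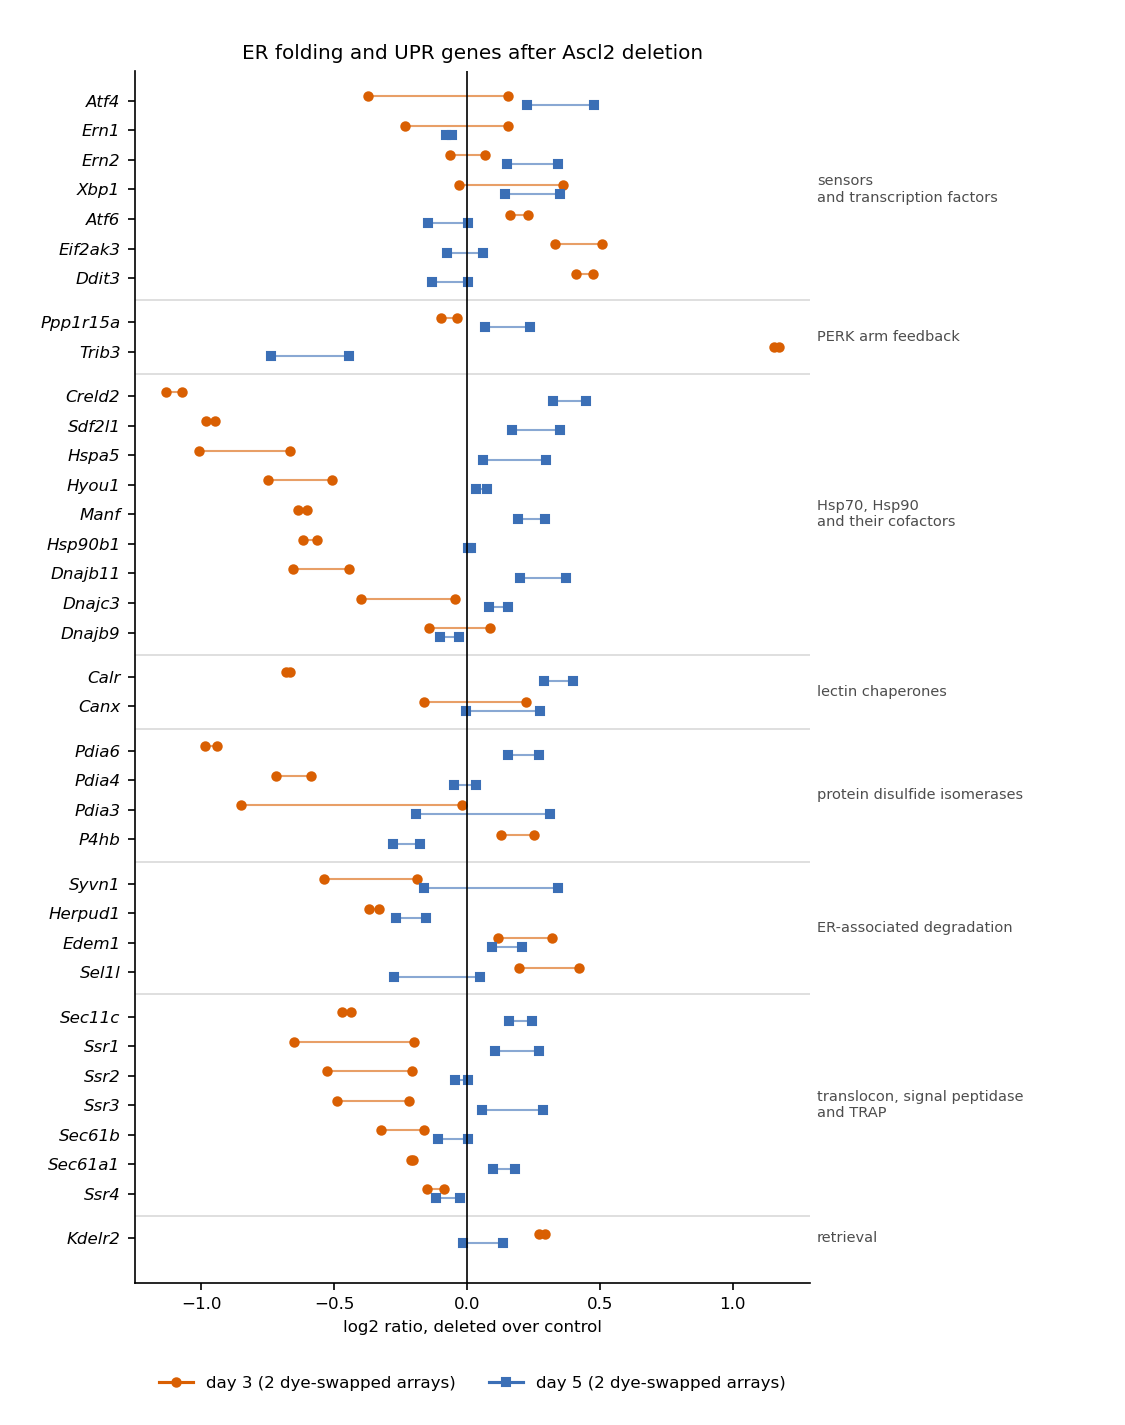
Log2 ratio of deleted over control (horizontal) for each member on day 3 and day 5, grouped by role. Each symbol is 1 array and each line joins the dye-swapped arrays of a day. Chaperones such as Hspa5, and Creld2 with them, lie left of 0 on day 3 and right of it on day 5, and Trib3 does the reverse.

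Members with 1 sign on all 4 deletion arrays were few. Herpud1, a membrane component of ER-associated degradation, was low throughout, at -0.37 and -0.33 on day 3 against -0.15 and -0.27 on day 5. Ssr4 was slightly low, at -0.09 and -0.15 on day 3 against -0.12 and -0.03 on day 5. Lower on all 4 arrays were thus 2 of 36 members against 13.3% of genes, and higher on all 4 was 1 of 36 against 12.5%. The latter was Edem1, a lectin that hands misfolded glycoproteins to degradation, at 0.12 and 0.32 on day 3 against 0.09 and 0.21 on day 5. None of the 3 passed the limma test (adjusted p of 0.965 to 0.976).

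The difference between the days was tested with a coefficient for each day. There is 1 RNA pair a day, so the residual spread came from the 2 sorts alone, which is the spread between other samples. By that limma test the ratio was higher on day 5 than on day 3 for 12 of 36 members, against 15.6% of all genes, and lower for 2 of 36, against 12.4%. The group of Hsp70 and Hsp90 chaperones and their cofactors, with Creld2 and Manf, supplied 6 of the 12, and the lower genes were Trib3 and Ddit3. The median difference over members was 0.34, against 0.00058 over all genes tested. With Agilent's processed signals, which the scanner software corrected, no gene on the array passed, and with the deposited log2 values 6 members did.

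Most chaperones, and Creld2 with them, lay below control on day 3 and at or above it on day 5. Creld2 stood at -1.07 and -1.13 on day 3 against 0.45 and 0.32 on day 5. The difference of 1.49 (SE 0.13, n = 1 RNA pair a day) is 2.81-fold (limma adjusted p = 0.00682). Hspa5 stood at -1.01 and -0.66 on day 3 against 0.06 and 0.30 on day 5, a difference of 1.02 (SE 0.12) or 2.02-fold (limma adjusted p = 0.0108). Calr stood at -0.67 and -0.68 on day 3 against 0.40 and 0.29 on day 5, a difference of 1.02 (limma adjusted p = 0.0107). Both were low on each day 3 array and above 0 on each day 5 array. A second Calr probe averaged -0.41 on day 3 and -0.07 on day 5. The size of the Calr difference thus depends on the probe. Pdia6 stood at -0.94 and -0.99 on day 3 against 0.27 and 0.15 on day 5, a difference of 1.17 (limma adjusted p = 0.00772).

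Sdf2l1 stood at -0.95 and -0.98 on day 3 against 0.17 and 0.35 on day 5, a difference of 1.22 (limma adjusted p = 0.0129). Manf stood at -0.64 and -0.60 on day 3 against 0.19 and 0.29 on day 5, a difference of 0.86 (limma adjusted p = 0.0263). Dnajb11, the Hsp40 partner that feeds clients to BiP, stood at -0.44 and -0.65 on day 3 against 0.37 and 0.20 on day 5, a difference of 0.83 (limma adjusted p = 0.0284). All 3 were low on both day 3 arrays and above 0 on both day 5 arrays. Hyou1, an ER Hsp70 relative that exchanges nucleotide on BiP, stood at -0.75 and -0.51 on day 3 against 0.04 and 0.07 on day 5, a difference of 0.68 (limma adjusted p = 0.0394). Hsp90b1 stood at -0.62 and -0.56 on day 3 against 0.02 and 0.0046 on day 5, low on day 3 and at control level on day 5, with a difference of 0.60 that did not pass (limma adjusted p = 0.174). Its dimmer probe averaged -0.86 on day 3 and 0.13 on day 5.

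Smaller differences past the test belonged to Pdia4 (0.64), Ssr1 (0.61), Ssr3 (0.53) and Syvn1, the ubiquitin ligase of the degradation pathway (0.45). All 7 genes of the translocon, signal peptidase and TRAP had means below 0 on day 3, from -0.45 to -0.12, and on day 5 they ran from -0.07 to 0.20. A further Ssr1 probe stood at 1.96 on day 5, and another averaged -0.17 on day 3 and -0.32 on day 5. The size and the direction of that gene's difference thus depend on the probe. P4hb, the classic disulfide isomerase, ran the other way, at 0.25 and 0.13 on day 3 against -0.28 and -0.18 on day 5 (difference -0.42, limma adjusted p = 0.172). Sel1l, the partner of Syvn1, stood at 0.19 and 0.42 on day 3 against -0.27 and 0.05 on day 5 (difference -0.42, limma adjusted p = 0.0516). Kdelr2 stood at 0.27 and 0.29 on day 3 against 0.14 and -0.01 on day 5, and Edem1 as given above, with differences of -0.22 and -0.07 that did not pass.

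Trib3 and Ddit3, which lie downstream of PERK, differed between the days in the direction opposite to the chaperones. Trib3 was the member highest on day 3, at 1.16 and 1.17, and the lowest on day 5, at -0.44 and -0.74. The difference of -1.76 (SE 0.11, n = 1 RNA pair a day) was past the test (limma adjusted p = 0.00430). Its standard error rests on sorts in which the probe was not above background on every array. Its second probe averaged 0.86 on day 3 and -0.19 on day 5. The brighter probe maps to the minus strand of chromosome 2, 152029060 to 152029119, in build mm8. Ddit3 stood at 0.47 and 0.41 on day 3 against 0.0037 and -0.13 on day 5, above control on day 3 alone, with a difference of -0.51 (SE 0.11, limma adjusted p = 0.0343). Eif2ak3 stood at 0.33 and 0.51 on day 3 against -0.07 and 0.06 on day 5, a difference of -0.43 that just missed the threshold (limma adjusted p = 0.0508).

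Atf4 stood at 0.15 and -0.37 on day 3 against 0.48 and 0.23 on day 5 (difference 0.46, limma adjusted p = 0.0623). Ppp1r15a stood at -0.04 and -0.10 on day 3 against 0.07 and 0.24 on day 5, small values on each side of 0 (difference 0.22, limma adjusted p = 0.236). Xbp1 stood at 0.36 and -0.03 on day 3 against 0.14 and 0.35 on day 5, with no shift common to both dye orientations. Ern1 gave -0.23 and 0.15 on day 3 against -0.08 and -0.06 on day 5, near control. Ern2 gave 0.07 and -0.06 on day 3 against 0.15 and 0.34 on day 5, above control on day 5 alone. Atf6 stood at 0.23 and 0.16 on day 3 against 0.0031 and -0.15 on day 5. None of these 4 passed, with limma adjusted p from 0.378 to 0.889 for the difference. Of the 15 members with several probes past the filter, probes differed in the sign of the mean over days for Atf6, Canx, Kdelr2, Sec61a1 and Ssr1.

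**Figure D4:**
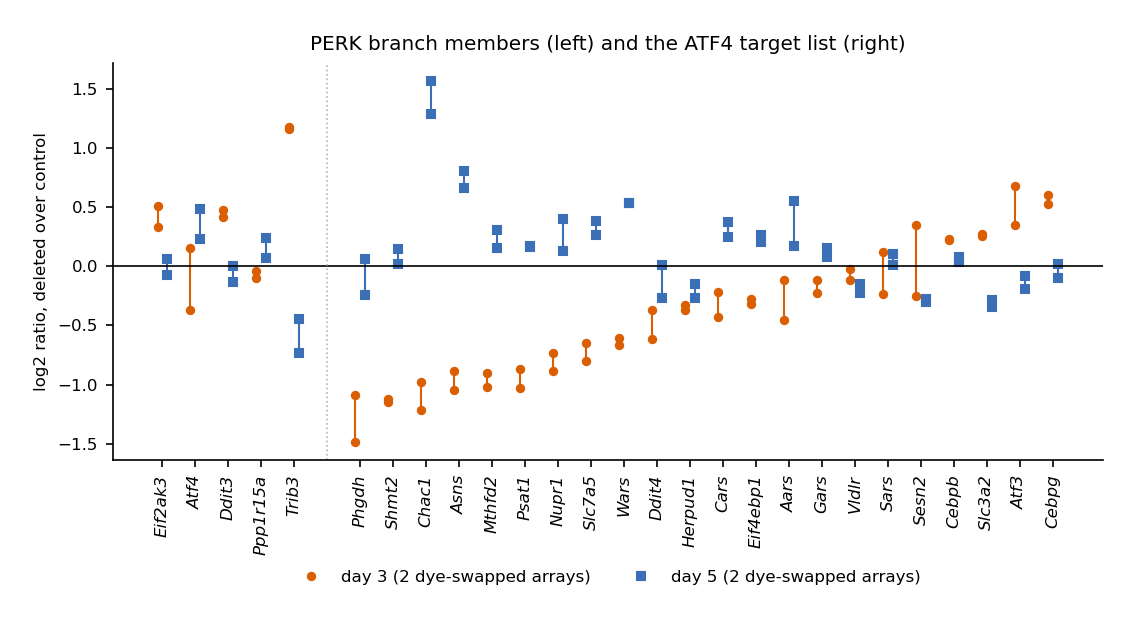
Log2 ratio of deleted over control (vertical) for the 5 members of the PERK branch, left of the dotted line, and for the 22 tested genes of the ATF4 target list, right of it in order of their day 3 mean. Each symbol is 1 array. Trib3 is above 1 on day 3, where 17 of the 22 list genes are below 0.

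Most other known targets of ATF4 lay below control on day 3, where Trib3 and Ddit3 were above it. In that list, which shares Herpud1 with the members, 17 of 22 tested genes were below control on day 3 (median -0.34) and 14 of 22 above it on day 5 (median 0.10). The difference was higher past the test for 11 of 22 and lower for 2 of 22, against 15.6% and 12.4% of all genes tested. Chac1, a glutathione-degrading enzyme induced through ATF4, stood at -1.21 and -0.97 on day 3 against 1.29 and 1.56 on day 5, a difference of 2.52 (limma adjusted p = 0.00254 over all genes). Wars had a difference of 1.17 and Shmt2 of 1.21, both past the test.

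Among the other pathway lists, genes of translocation, glycosylation and oxidation had median differences above 0, and those of degradation and Golgi transport had medians near 0. The counts below stand against 15.6% of all genes tested called higher and 12.4% called lower. For N-glycosylation the difference was higher past the test for 7 of 24 genes and lower for 0 (median 0.43), led by Alg8 at 1.20, Mogs at 0.98 and Uggt1 at 0.89. For the other translocation genes it was higher for 3 of 17 and lower for 0 (median 0.15), namely Srp19 at 0.52, Sec61a2 at 0.87 and Spcs3 at 0.59. The share called higher in that list is close to the share over all genes. For the other oxidoreductases it was higher for 4 of 17 and lower for 1 (median 0.23), led by Prdx4 at 0.75, Pdia2 at 0.77 and Agr2 at 0.50. The other degradation genes had 1 higher and 3 lower of 20 (median -0.0069), led by Os9 at -0.75, Ube2g2 at 0.73 and Erlec1 at -0.59. Genes of ER-to-Golgi transport had 2 higher and 4 lower of 33 (median -0.04), led by Arfgap3 at -1.22, Creb3l2 at -1.30 and Sec16b at -0.77.

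Chaperones of the cytosol and mitochondria had a larger median difference than the members, with 18 of 22 higher past the test and 0 lower (median difference 0.80, day 3 median -0.66). Hspa1a, a heat-inducible Hsp70, stood at -3.07 and -3.06 on day 3 against -0.25 and 0.11 on day 5, a difference of 2.99. Its near-identical copy Hspa1b, which the probes may not separate, had a difference of 2.25, and Hsph1 of 1.74. These heat-inducible genes lay far below control on day 3 and near it on day 5. Their part in the day 3 values of the ER genes was not tested. Averaged over the days no gene of these lists passed the limma test. The smallest p of each list belonged to Hspb1 at 1.21, Agr3 at -1.49, Phgdh at -0.69, Alg6 at -0.44, Derl3 at -0.42, Srp54a at 0.33 and Creb3l4 at -0.29.

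Markers of several cell types also differed between the days, where 15.6% of all genes tested were called higher on day 5 and 12.4% lower. On day 3, 13 of 13 tested Paneth cell markers lay below control (from -2.97 to -0.78, median -1.25), and on day 5 their median was -0.03. The difference was higher past the test for 8 of the 13. Lyz1 averaged -1.20 on day 3 and 0.39 on day 5, Mmp7 -0.82 and 0.69, and Pla2g2a -1.25 and 0.58. Of 12 proliferation genes 12 were below control on day 3 (median -1.16) and 6 on day 5 (median -0.03), and Mki67, Top2a and Ccnb1 averaged -1.22, -1.19 and -1.02 on day 3. The difference passed for 11 of the 12. Enterocyte markers had a median of 0.67 on day 3 and -0.44 on day 5, with Sis at 0.31 and -0.40 and Lct at 0.89 and -0.45, and 13 of 19 were lower past the test. T cell markers had a median of 0.96 on day 3 and -0.03 on day 5, with Cd3d at 1.08 and -0.41, and 8 of 11 were lower past the test and 1 higher.

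Plasma and B cell markers, of cells rich in ER, had a median of 0.90 over the 10 tested on day 3 and 0.06 on day 5, and 6 of 10 were lower past the test. Goblet cell markers stood at a median of 0.17 on day 3 but 0.01 on day 5, and on day 3 they lay on both sides of control, 6 of 15 below it (lowest -1.42) and 9 above. The difference was lower past the test for 5 of the 15 and higher for 3, and Muc2 was at 0.94 and 0.13 and Tff3 at 1.24 and -0.30. Those of fibroblasts and smooth muscle, which are no part of an epithelium, had a median of -0.13 on day 3 and 2.97 on day 5 over 8 tested, with Col1a1 at -0.92 and 4.81, and 5 of 8 were higher past the test. The part of these cells in the ER gene ratios was not tested.

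Of the 4 RNA pairs, day 3 had the widest gap between the medians of members with and without ERSE or ERSE-II. On day 3 the 10 members with ERSE or ERSE-II had a median log2 ratio of -0.57 with 9 below 0, and the 18 with neither had -0.05 with 11 below 0. On day 5 the medians were 0.16 and -0.0077. In sort 1 they were -0.30 for both sets, and in sort 2 they were -0.39 for the 10 with a motif and -0.12 for the 15 tested without. Values of the sets overlapped in all 4 RNA pairs. Within the set with neither motif, Sdf2l1 averaged -0.96 and Trib3 1.17 on day 3. The 8 members without a window, such as Hyou1 and Manf, are left out of these medians, and the difference between the sets was not tested. The sets also differ in role. Either motif was in 5 of 7 windows of the Hsp70 and Hsp90 group and 2 of 2 of lectin chaperones. It was in 2 of 4 of degradation genes, 1 of 4 of disulfide isomerases and 0 of 4 of translocon genes. Sensors and transcription factors had 0 of 5 and PERK feedback genes 0 of 2. The part of role in the gap was not tested.

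**Figure D5:**
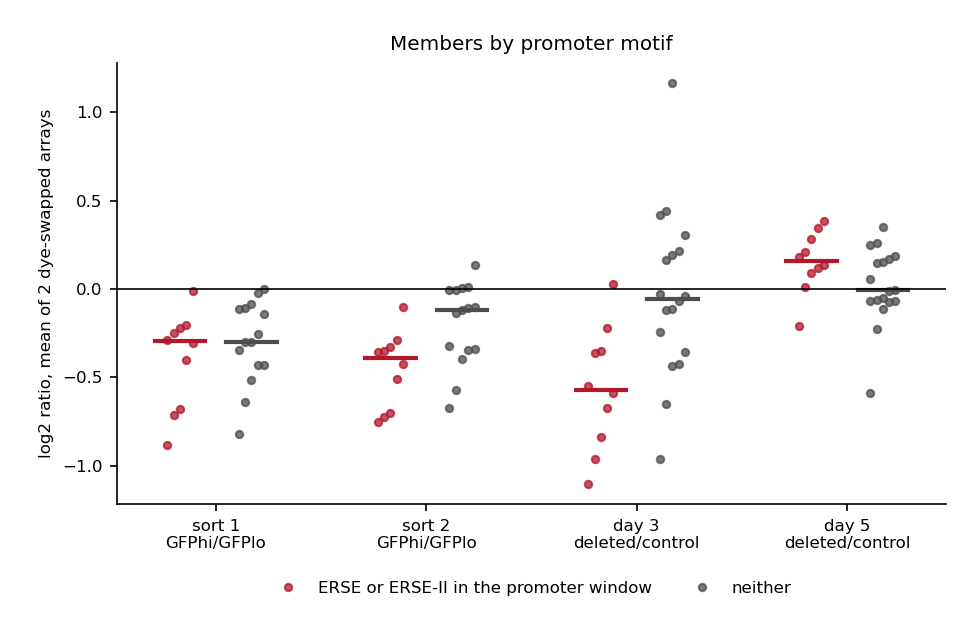
Log2 ratio (vertical, mean of 2 dye-swapped arrays) of the members with a promoter window in each RNA pair, split by whether the window holds ERSE or ERSE-II. Each point is 1 member and each bar a median. On day 3 the medians are -0.57 with a motif and -0.05 with neither, and the points of both sets overlap.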

How the data were processed

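RNA of 4 pairs of samples was measured on 8 Agilent two-colour arrays. Total RNA was extracted with Trizol and amplified linearly for labelling, per the labels' protocols. Per the file headers, Feature Extraction 9.5.3.1 (protocol GE2-v5_95_Feb07) gave mean foreground and median background intensity for each channel, processed signals, and log10 ratios of Cy5 over Cy3, with probe positions in mouse build mm8. In the authors' series matrix the values are log2 ratios, deposited with GFPhi or deleted RNA already as numerator. Its columns correlated with the turned scanner log ratios at 0.964 or more and had medians from -0.0224 to 0.0347, and the sources used here do not say how the authors centred them. Day 5 scanner values are rounded to 3 significant digits, so gene names came from day 3 by feature number.

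Background was corrected with normexp (offset 50) and arrays were normalised by loess, with the 1639 control spots at weight 0 and outlier spots left out. Probes were named through RefSeq accessions (GRCm38.p6) or the file's own symbol. Dye-swapped arrays were averaged. Tests used limma 3.58.1 (lmFit, then eBayes; R 4.3.3 with statmod 1.5.0), two-sided, with Benjamini-Hochberg adjustment over all genes tested and a threshold of 0.05. The sorts, the deletion pairs and the day difference each had a fit. The fits were tested on simulated data. No saturated spot occurred among the members' probes. The samples carry no replicate numbers that pair them across the comparisons.

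The members, gene lists, tests and alternatives were chosen with earlier results of these data known. All 36 members are accounted for. The sensors, transcription factors and feedback genes, with Hspa5, Hsp90b1 and Calr, are given by array, with up to 6 other members a direction in each comparison that had the largest mean and 1 sign on all arrays. For the day difference the sign was that of both dye orientations. Of other pathway lists up to 3 genes with the smallest p are named, and of cell type lists up to 3 of the first tested. Other genes or probes named were chosen after their values were seen. Lists were described by counts and medians and not tested.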

Additional observations from a re-analysis of the deposited data

Results flagged for a closer look

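In the 4 sort arrays, 1 array stood apart from the other 3 for Pdia3, at 0.25 in sort 1, and for Ern1, at -0.25 in sort 1. By Dixon's test chance gives such a gap in about 1 group of 20 if the values are independent. The dye-swapped arrays of a sort share their extracts and are not independent, and all 33 tested members were screened. The cause was not tested.

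The difference between day 5 and day 3 of the deletion passed the limma test, with its spread from the sorts alone, for 14 members. It was above 0 for Creld2 (1.49), Sdf2l1 (1.22), Pdia6 (1.17), Calr (1.02), Hspa5 (1.02), Manf (0.86), Dnajb11 (0.83), Hyou1 (0.68), Pdia4 (0.64), Ssr1 (0.61), Ssr3 (0.53) and Syvn1 (0.45), and below 0 for Trib3 (-1.76) and Ddit3 (-0.51). In 6 further members the arrays of day 3 lay on one side of 0 and those of day 5 on the other, and the difference did not pass. These were Sec11c (0.65), Hsp90b1 (0.60), Sec61a1 (0.35), Dnajc3 (0.34), Ppp1r15a (0.22) and P4hb (-0.42). How many of all genes tested split in this way was not counted. Of all genes, 39.5% were lower and 38.9% higher on both day 3 arrays. On both day 5 arrays 34.9% were lower and 31.6% higher. These shares are for each day alone and do not give the share of genes that split. Day and slide cannot be told apart.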

How the results depend on the processing

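In the sorts, the median over members was -0.32 without background subtraction, -0.37 with the deposited log2 values, -0.29 without the filter on dim probes and -0.26 with all probes of a gene averaged, and between 30 and 33 members stayed below 0. Members (genes) called were 16 (1173) without background subtraction, 9 (854) with processed signals, 12 (838) with the deposited values, 1 (41) with all probes averaged, 0 (28) with the RNA pair as a random block and 0 (0) with all 4 RNA pairs fitted together. Leaving out 1 sort gave medians from -0.34 to -0.33, and its calls are not compared, since the spread then came from the deletion pairs alone. In the deletion, the random block gave 247 genes and 0 members. Leaving out 1 day gave 1194 to 6124 genes, 1 to 20 members called and 13 to 25 members below 0, with the spread from the sorts. Against its mean of 0.29, Trib3 was reversed without day 3, at -0.59, and at 1.17 without day 5. For the day difference, processed signals gave 0 genes and 0 members, the deposited values 1650 genes and 6 members, and the random block 7749 genes. Apart from these, counts of members and genes stayed within 1.5 times. The causes were not tested. No paired analysis was possible because each comparison pairs its RNAs on the array and the comparisons share no replicate numbers. In the sorts, 3 members were too dim to be tested.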
